A study of Mus musculus with 6 samples.

Results

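The DNA replication and mitosis genes are 43 genes whose RNA marks dividing cells, 21 that act when the genome is copied and 22 that act when the copies are separated. They were taken by name from a list, from Mcm2 to E2f1 for replication and from Ccna2 to Foxm1 for mitosis, out of 25239 genes listed for the series. The list was chosen with earlier results of these data known. All 43 were listed, and all 43 were among the 15256 genes that passed the filter on low counts, with 492 to 20074 counts per library. RNA was sequenced in bulk from mouse thyroid organoids at day 31 of differentiation, in 3 groups of 2 libraries. The organoids came from 1 modified embryonic stem cell line, G4 RosaLuc with the constructs TRE-Nkx2-1-Pax8 and bTg-NES-BrafV637E-ERT2. Doxycycline switches on the thyroid transcription factors Nkx2-1 and Pax8 of the first construct. In the second the bovine thyroglobulin promoter drives Braf V637E, which in the mouse stands for the BRAF V600E of human tumours, as a fusion that is inactive until 4-hydroxytamoxifen (4OHT) is added. Every group carried the transgene and received doxycycline and 8-Br-cAMP. The cAMP group received the ethanol vehicle in place of 4OHT, the 4OHT group received 1 µM 4OHT, and the PD+LY group received 1 µM 4OHT with 250 nM of the MEK inhibitor PD0325901 and 5 µM of the PI3K inhibitor LY204002 for the last 3 days. Follicles were enriched, wells were pooled within a condition, and other cells of the organoid were still present. The stated lengths of 4OHT exposure differ between the 4OHT and PD+LY groups, so that length and the inhibitors cannot be told apart.

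A dividing cell first loads the MCM helicase onto replication origins, fires the origins and copies its DNA with polymerases clamped by PCNA, then condenses its chromosomes and pulls them apart on a spindle under the control of CDK1, the Aurora and Polo kinases and the spindle checkpoint. Genes of the first set are mostly read out as cells enter S phase under E2F transcription factors, and genes of the second set later in the cycle, when the MuvB complex with B-MYB and FOXM1 acts through a short promoter element called the CHR, often beside a CCAAT box bound by NF-Y. The MAPK and PI3K pathways, which PD0325901 and LY204002 block, carry mitogen signals to this machinery.

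RefSeq promoters on the GRCm38.p6 build, 250 bases before to 50 bases after a start site, were found for 34 of the 43 genes. They were searched on both strands for a strict E2F site (TTTCCCGC, TTTCGCGC, TTTGCCGC or TTTGGCGC), for the CHR (TTTGAA or TTTAAA) and for CCAAT. An E2F site stood in 7 of 20 replication promoters (35.0%), in 1 of 16 mitosis promoters (6.25%) and in 2.26% of all 32851 promoters of that length. The CHR letters stood in 15 of 16 mitosis promoters (93.75%), in 5 of 20 replication promoters (25%) and in 27.6% of all promoters. A CHR together with CCAAT was found in 14 of 16 mitosis promoters (87.5%), against 20% of the replication promoters and 10.7% of all promoters. Within 50 bases of the start the CHR was present in 13 of 16 mitosis promoters and 2 of 20 replication promoters, and in 8.28% of all promoters. CCAAT stood in 93.75% of the mitosis promoters, 65% of the replication promoters and 37.4% of all promoters, and within 50 bases of the start in 62.5%, 55% and 13.6%. Bub1 had no CHR match and Birc5 had no CCAAT in these windows. The matches are letters in a window and were not measured as binding.

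**Figure D1:**
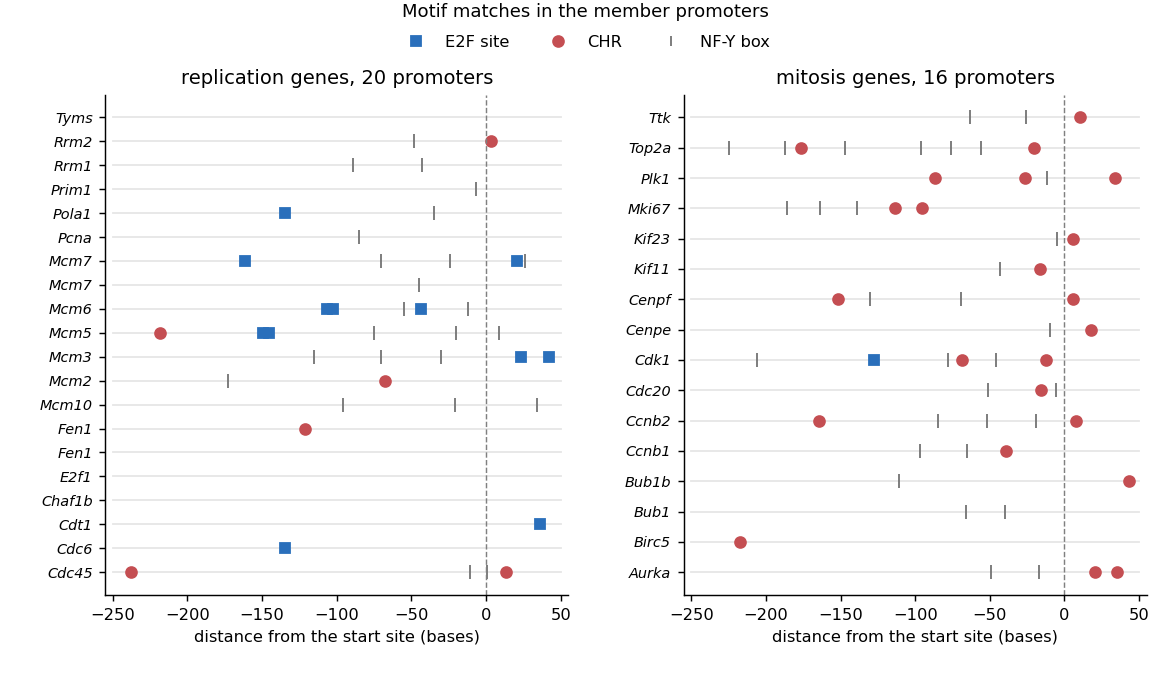
Position of each motif match in the RefSeq promoters of the replication genes (20 promoters) and mitosis genes (16 promoters), as distance in bases from the start site (dashed line), with blue squares for the E2F site, red circles for the CHR and grey ticks for CCAAT, the box bound by NF-Y. In the mitosis panel red circles gather within 50 bases of the start in 13 of 16 promoters, while blue squares are seen mostly in the replication panel.

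The promoters of 4 genes with matches are printed to show these layouts, and that of Tyms is printed as one of the replication promoters without any of the 3 motifs. Each runs from 5′ to 3′ in the direction of transcription and ends 50 bases into the transcript. Capitals mark the CHR and the CCAAT box (in Kif23 the box lies on the other strand and reads ATTGG) in Cenpe and Kif23, which code for a kinesin of the kinetochore and a kinesin of the cytokinetic midzone and which fell in the PD+LY organoids. In Cdk1, the one mitosis promoter with an E2F site, capitals mark that site and the CHR matches. In Mcm5, a subunit of the MCM helicase, they mark a pair of overlapping E2F sites that face each other. The windows are chr3:135212313-135212612 (plus strand) for Cenpe, chr9:61946750-61947049 (minus strand) for Kif23, chr10:69352863-69353162 (minus strand) for Cdk1, chr8:75109259-75109558 (plus strand) for Mcm5 and chr5:30073576-30073875 (minus strand) for Tyms.
Cenpe: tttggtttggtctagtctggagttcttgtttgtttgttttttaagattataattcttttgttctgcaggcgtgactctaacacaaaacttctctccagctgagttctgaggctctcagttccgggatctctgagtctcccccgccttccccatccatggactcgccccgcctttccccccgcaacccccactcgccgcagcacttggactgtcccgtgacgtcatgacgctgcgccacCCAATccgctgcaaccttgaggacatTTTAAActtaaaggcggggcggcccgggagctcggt
Kif23: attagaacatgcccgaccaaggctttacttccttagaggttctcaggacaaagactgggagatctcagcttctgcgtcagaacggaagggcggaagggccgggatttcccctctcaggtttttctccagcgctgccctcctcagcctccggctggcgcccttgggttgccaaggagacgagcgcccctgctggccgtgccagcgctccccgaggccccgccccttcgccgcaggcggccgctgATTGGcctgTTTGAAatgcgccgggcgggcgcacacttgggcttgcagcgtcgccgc
Cdk1: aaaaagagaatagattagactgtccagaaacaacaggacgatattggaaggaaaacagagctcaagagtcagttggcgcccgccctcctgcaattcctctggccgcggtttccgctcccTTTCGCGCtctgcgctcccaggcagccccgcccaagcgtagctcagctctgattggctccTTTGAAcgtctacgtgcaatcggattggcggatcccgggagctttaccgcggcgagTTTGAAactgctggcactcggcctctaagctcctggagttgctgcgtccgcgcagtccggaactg
Mcm5: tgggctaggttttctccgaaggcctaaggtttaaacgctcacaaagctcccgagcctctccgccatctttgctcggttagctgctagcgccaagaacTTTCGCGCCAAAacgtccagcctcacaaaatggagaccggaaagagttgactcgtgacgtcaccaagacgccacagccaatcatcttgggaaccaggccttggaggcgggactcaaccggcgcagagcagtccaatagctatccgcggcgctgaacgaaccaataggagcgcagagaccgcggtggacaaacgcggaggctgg
Tyms: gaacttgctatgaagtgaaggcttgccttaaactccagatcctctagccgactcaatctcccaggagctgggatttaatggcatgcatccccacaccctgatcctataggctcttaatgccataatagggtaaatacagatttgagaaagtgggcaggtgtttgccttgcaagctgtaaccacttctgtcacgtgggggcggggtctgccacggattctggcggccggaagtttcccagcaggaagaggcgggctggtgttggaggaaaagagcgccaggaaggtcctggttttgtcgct

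The organoids of every group expressed these genes well above the usual gene. Levels are given as CPM, counts scaled to library size with TMM factors, and between genes as CPM per kilobase of exon. The median over the 43 genes was 39.8 CPM per kilobase, against 5.02 over 14995 genes with a known length, which placed it at the 91.8th percentile. The mitosis genes had a median of 44.1 CPM per kilobase and the replication genes one of 26.3. Ccnb2, a B-type cyclin, was highest at 136.8 CPM per kilobase, next to the helicase subunit Mcm7 at 129.5. The lowest were Tyms, the enzyme that makes thymidylate, at 8.36 and Pola1, the catalytic subunit of the polymerase that starts each new strand, at 8.96. The lowest of the mitosis genes was Cdc25c, the phosphatase that activates CDK1, at 10.4.

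The libraries held 14898409 to 20637959 counts, and replicates varied more than counting error allows. The 2 PD+LY libraries stood furthest apart, at 18.4 times the counting variance (a chi-square over its degrees of freedom), against 8.48 for cAMP and 4.63 for 4OHT. Over the 43 genes their difference followed base composition: the log2 ratio of PD+LY library 1 to library 2 ran against the GC content of the transcript with a Spearman rho of -0.861, and with a rho of -0.476 over 15018 genes. These are correlations across genes, which share their libraries. The class medians and counts of calls are therefore given below also without each library, and with offsets that remove the GC trend from each library, a correction chosen after the data were seen. Values of single genes come from all 6 libraries unless said otherwise.

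The first comparison asked how the division genes stood after Braf V637E had been activated, 4OHT against cAMP. Few of them passed the test. None of the 21 replication genes and 1 of the 22 mitosis genes passed, by edgeR's quasi-likelihood test with an adjusted p under 0.05, where 4.04% of all tested genes were called higher and 4.35% lower. The exception was Bub1, a kinase of the spindle checkpoint, which fell. The median log2 fold change was -0.018 for replication and -0.08 for mitosis, against -0.0021 over all tested genes. With a 2-fold change as a further condition none of the 43 was called, against 2.67% of all tested genes.

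Bub1 was at 298 and 263 CPM in the cAMP libraries, at 192 and 204 in 4OHT and at 208 and 179 in PD+LY. Both 4OHT libraries were below both cAMP libraries and overlapped the PD+LY libraries. The log2 fold change in 4OHT was -0.50 ± 0.10 (SE), a decrease by 29.4% with an adjusted p of 0.0133 by edgeR, and the call was lost without cAMP library 1 or without either 4OHT library, at log2 fold changes of -0.41, -0.46 and -0.54. The next mitosis genes in order of p were Kif11, the motor that pushes the spindle poles apart, at -0.30 ± 0.09 (adjusted p = 0.0640), Cenpe at -0.25 ± 0.10 (adjusted p = 0.145) and Mki67, the gene of the proliferation marker Ki-67, at -0.22 ± 0.10 (adjusted p = 0.206). These 3 did not pass. With the GC offsets Kif11 was at -0.18, Cenpe at -0.15 and Bub1 at -0.35, and the median of the mitosis genes was -0.055. Kif11 passed, like Chaf1b below, when either PD+LY library was left out (log2 fold changes of -0.30).

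Among the replication genes the largest value was that of Chaf1b, a subunit of the factor that loads histones onto new DNA. It was at 99.8 and 103 CPM in cAMP, at 134 and 122 in 4OHT and at 129 and 152 in PD+LY. Both treated groups lay above both cAMP libraries. The difference between 4OHT and cAMP was 0.33 ± 0.11 on the log2 scale (adjusted p = 0.0774 by edgeR), and it passed without either PD+LY library at the same 0.33. Tyms was at -0.32 ± 0.12 (adjusted p = 0.135), Pcna, the sliding clamp of the polymerases, at -0.14 ± 0.09 (adjusted p = 0.351) and Mcm5 at -0.16 ± 0.10 (adjusted p = 0.377). At an unadjusted p under 0.05 the count was 2 for replication and 4 for mitosis, and DESeq2 called 0 and 1. The 95% interval of the difference lay within 2-fold for all 43 genes and within 1.5-fold for 42. These intervals hold for the bulk RNA and for the spread between these libraries. Other cells of the organoid were present too, so a change in the Braf V637E cells alone cannot be read from them. Levels in 4OHT and cAMP did not overlap in 10 of the 43 genes that were higher and 20 that were lower, where 29.1% and 29.4% of all tested genes were so.

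The second comparison set PD+LY against 4OHT, groups that differ by the 2 inhibitors and by the stated length of 4OHT exposure. Mitosis genes were mostly lower, and few replication genes were called. Of the 22 mitosis genes 6 fell (27.3%) and 0 rose, where 12.1% of all tested genes were called lower and 10.7% higher. Of the 21 replication genes 2 rose (9.52%) and 1 fell (4.76%), shares below those of all tested genes. The median log2 fold change was -0.23 for mitosis, with 20 of 22 values below 0, and 0.12 for replication, with 13 of 21 above 0, against 0.0077 over all tested genes. No mitosis gene was higher at an unadjusted p under 0.05, and DESeq2 called 0 higher. None of the 43 reached 2-fold, as 7.26% of all tested genes did.

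The 6 that fell cover several steps of mitosis. Cenpe, which carries chromosomes to the middle of the spindle, was at 118 and 139 CPM in 4OHT and at 93.1 and 91.7 in PD+LY, a log2 fold change of -0.47 ± 0.10 (adjusted p = 0.00616 by edgeR). Cdc25c was at 58.2 and 59.5 CPM in 4OHT and at 39.6 and 43.1 in PD+LY, a log2 fold change of -0.51 ± 0.11 (adjusted p = 0.00808). Both genes were lower in each PD+LY library than in each 4OHT library. Tpx2, which activates Aurora A on the spindle, was at -0.35 ± 0.08 (adjusted p = 0.0121), and Bub1b, the checkpoint protein BubR1, at -0.35 ± 0.09 (adjusted p = 0.0191). Ccnb2 was at -0.31 (adjusted p = 0.0236) and Kif23 at -0.28 (adjusted p = 0.0334). The levels of PD+LY and 4OHT did not overlap in 17 of 22 mitosis genes, all lower, where 31.2% of all tested genes were lower without overlap.

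In the replication set Pola1 was at 69.9 and 65.2 CPM in 4OHT and at 101 and 92.6 in PD+LY. Tyms was at 43.1 and 39.3 CPM in 4OHT and at 56.3 and 64.1 in PD+LY. Each rose, Pola1 by 0.52 ± 0.11 and Tyms by 0.55 ± 0.12 on the log2 scale (adjusted p = 0.00651 and 0.00731 by edgeR), and Pola1 was at 0.39 with the GC offsets. Gins2, a part of the ring that turns the loaded MCM complex into a running helicase, was at 49.9 and 47.2 CPM in 4OHT and at 32.3 and 37.2 in PD+LY, a log2 fold change of -0.48 ± 0.12 (adjusted p = 0.0159). The exons of Gins2 overlap those of Gse1 on the other strand over 67.3% of their length, and the reads were counted without regard to strand, so this value cannot be assigned to Gins2 with certainty. Mcm5 followed at -0.24 ± 0.10 (adjusted p = 0.102) and did not pass. It passed without PD+LY library 2 (-0.39) and with the replicate number as a block (-0.25). Levels of PD+LY and 4OHT did not overlap in 10 replication genes that were higher (31.1% of all tested genes) and 5 that were lower.

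These calls rested on few libraries. Without 4OHT library 2 edgeR called 0 of the 43 genes, without 4OHT library 1 it called Cenpe, Pola1 and Tyms, and the medians then stayed on the same sides of 0. Without PD+LY library 1 the median was -0.15 for mitosis, and Bub1b was lost at -0.25. Without PD+LY library 2 it was -0.26 for mitosis with 10 calls, and 0.014 for replication. Replication calls numbered 6 without PD+LY library 1, among them E2f1 at 0.39, and 5 without library 2, and with the GC offsets the counts were 11 for mitosis and 6 for replication, while the calls over all tested genes went from 3469 to 4449.

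The third comparison set PD+LY against cAMP, the groups furthest apart in treatment, and shares libraries with each of the comparisons before it. Here 13 of the 22 mitosis genes fell (59.1%) and 0 rose, where 13.7% of all tested genes were called lower and 12.1% higher. Of the 21 replication genes 4 rose (19.0%) and 2 fell (9.52%). The median log2 fold change was -0.31 for mitosis, with Cdk1 alone above 0, and 0.10 for replication, against 0.0049 over all tested genes. No mitosis gene was higher at an unadjusted p under 0.05, and DESeq2 called 13 lower and 0 higher. Levels did not overlap in 18 mitosis genes that were lower and 1 that was higher, and in 11 replication genes that were higher and 6 that were lower, where 31.2% of all tested genes were lower and 30.2% higher in this way. The changes were small, since none of the 43 genes reached 2-fold while 9.24% of all tested genes were called with at least a 2-fold change.

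**Figure D2:**
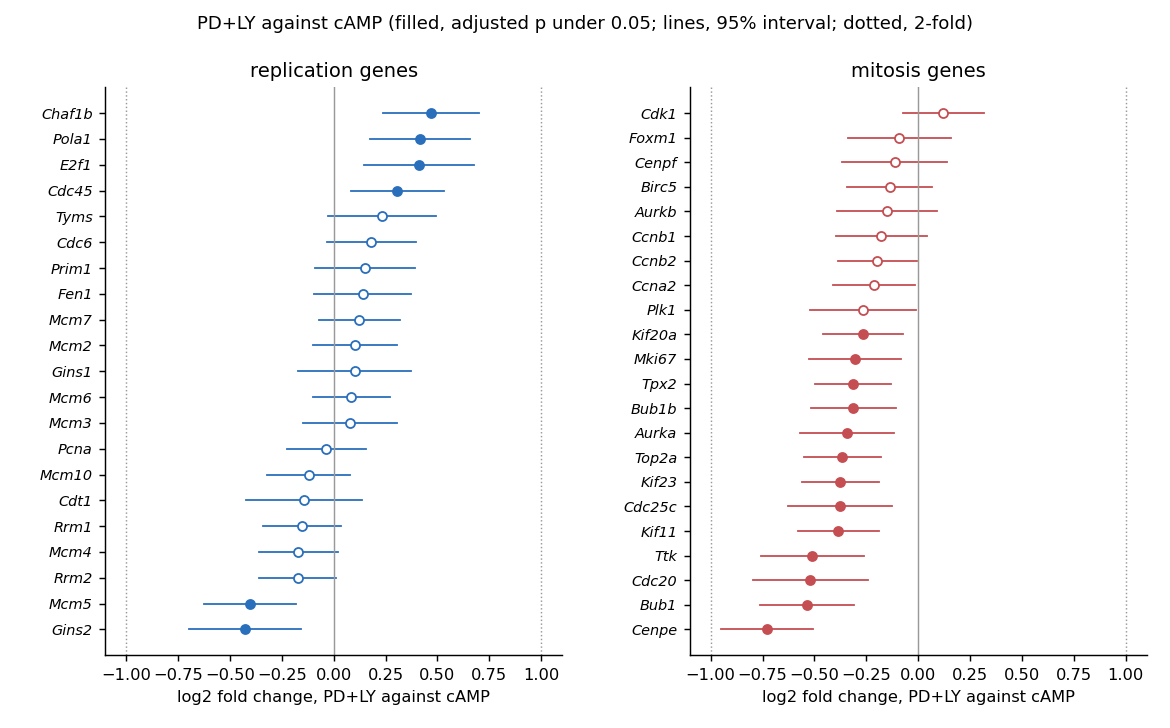
Log2 fold change of PD+LY against cAMP for the 21 replication genes (left) and 22 mitosis genes (right), with 95% intervals as lines, filled points for an adjusted p under 0.05 and dotted lines at 2-fold. Of the mitosis genes 21 lie left of 0 and 13 are filled, whereas the replication genes lie on both sides with 4 filled on the right and 2 on the left.

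Cenpe had the lowest p of all members. It was at 153 and 153 CPM in the cAMP libraries, at 118 and 139 in 4OHT and at 93.1 and 91.7 in PD+LY, so that the 3 groups did not overlap. Its log2 fold change in PD+LY against cAMP was -0.73 ± 0.10, a decrease by 39.6% (adjusted p = 0.000299 by edgeR). Its partner in the list, Cenpf, another large protein of the kinetochore, was at -0.11 ± 0.12 with overlapping libraries (adjusted p = 0.509).

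The spindle checkpoint holds the cell before anaphase until each kinetochore is attached, and its 4 genes in the list all fell. Bub1 was at -0.54 ± 0.10 (adjusted p = 0.00299 by edgeR). Ttk, the checkpoint kinase Mps1, was at 91.6 and 82.2 CPM in cAMP, at 74.8 and 76.8 in 4OHT and at 65.9 and 56.1 in PD+LY, a log2 fold change of -0.51 ± 0.11 (adjusted p = 0.00627). For Ttk each 4OHT library lay between the cAMP and the PD+LY libraries. Cdc20, the activator of the anaphase-promoting complex, was at -0.52 ± 0.13 (adjusted p = 0.0104), with 149 CPM in PD+LY library 1 and 202 in library 2 against 239 and 264 in cAMP. Bub1b was at -0.31 ± 0.09 (adjusted p = 0.0283). The median of the 4 was -0.51.

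Beside Cenpe, the 3 other mitotic kinesins of the list fell too. Kif23 was at 210.1 and 208 CPM in cAMP, at 196 and 196 in 4OHT and at 158 and 163 in PD+LY. Replicates of Kif23 were close in each group and the groups followed one another without overlap, with a log2 fold change of -0.38 ± 0.09 (adjusted p = 0.00735 by edgeR). Kif11 was at -0.38 ± 0.09 (adjusted p = 0.00875) and Kif20a, the motor that carries Aurora B to the midzone, at -0.27 ± 0.09 (adjusted p = 0.0441). The exons of Kif20a overlap Cdc23 on the other strand over 29.3% of their length, which leaves its value uncertain.

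The proliferation markers that sit on chromosomes, Top2a and Mki67, both fell. Top2a, the topoisomerase that untangles sister chromatids, was at 1031 and 978 CPM in cAMP, at 862 and 952 in 4OHT and at 801 and 758 in PD+LY, a log2 fold change of -0.37 ± 0.08 (adjusted p = 0.00806 by edgeR). Mki67 was at 314 and 266 CPM in cAMP, at 243 and 254 in 4OHT and at 246 and 223 in PD+LY. Mki67 was thus lower in both treated groups than in cAMP, and those groups overlapped each other. Its log2 fold change was -0.31 ± 0.10 (adjusted p = 0.0439). Of the mitotic kinases and their partners, Aurka was at -0.34 (adjusted p = 0.0300) and Tpx2 at -0.31 (adjusted p = 0.0177), while Plk1 at -0.27, Aurkb at -0.15 and Birc5 at -0.14 did not pass.

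Of the cyclins, CDK1 and its activator, the engine of mitotic entry, 1 of 5 genes fell. Cdk1 was at 201 and 217 CPM in cAMP, at 224 and 220.0 in 4OHT and at 219.8 and 235 in PD+LY, a log2 fold change of 0.12 ± 0.09 in PD+LY against cAMP (adjusted p = 0.348 by edgeR). Ccnb1, the main partner of CDK1, was at 384 and 324 CPM in cAMP, at 356 and 320.4 in 4OHT and at 319.9 and 307 in PD+LY. Its replicates in cAMP differed by more than the groups did, and its log2 fold change was -0.18 ± 0.10 (adjusted p = 0.223). Ccna2 at -0.21 and Ccnb2 at -0.20 did not pass, and Cdc25c was the gene that fell (-0.38, adjusted p = 0.0298). The transcription factor Foxm1 was at -0.09 ± 0.11 (adjusted p = 0.597).

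**Figure D3:**
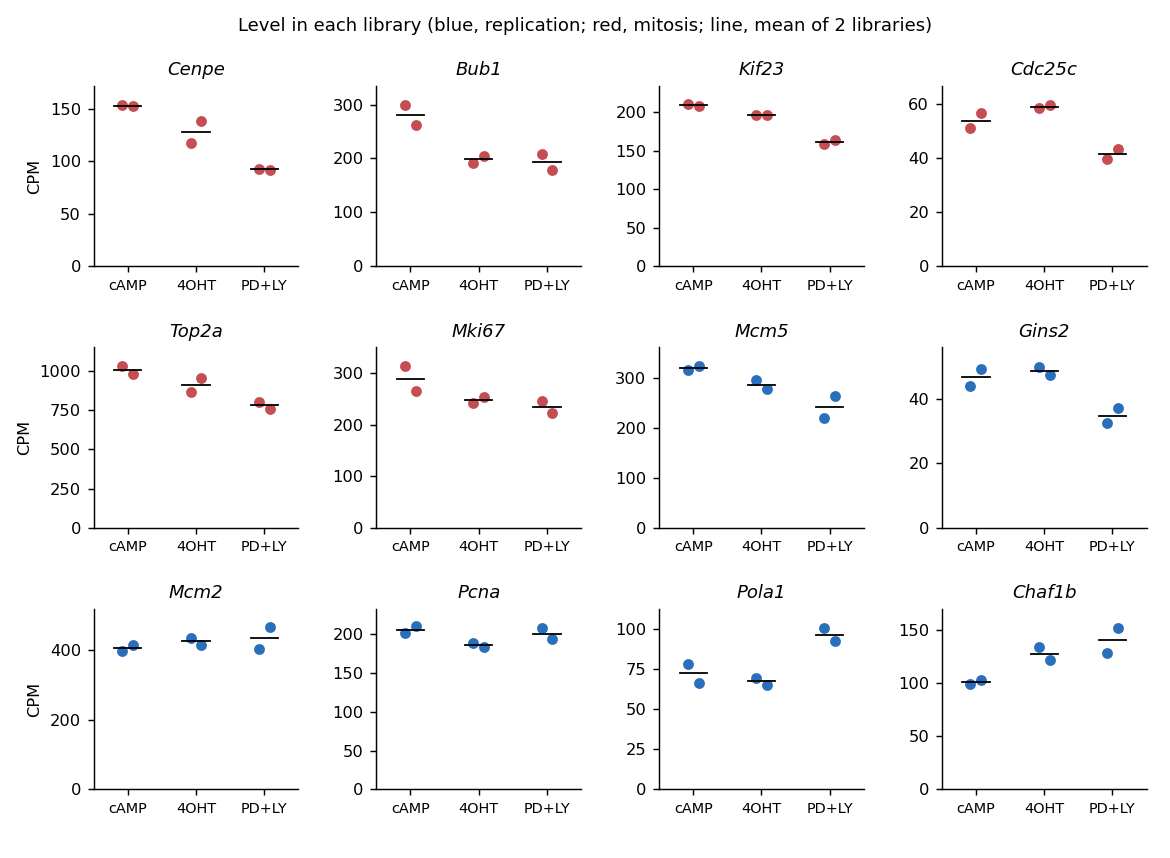
CPM in each of the 6 libraries for 6 mitosis genes (red) and 6 replication genes (blue), with a line at the mean of the 2 libraries of a group and every axis starting at 0. Cenpe and Kif23 step down from cAMP through 4OHT to PD+LY, Bub1 is lower in both treated groups, and Pola1 is higher only in the PD+LY libraries, at 101 and 92.6 CPM.

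The replication genes that rose belong to several steps. The genes of DNA synthesis held 2 of the 4, Chaf1b at 0.47 ± 0.11 (adjusted p = 0.00699 by edgeR) and Pola1 at 0.42 ± 0.11 (adjusted p = 0.0169). E2f1, the transcription factor that opens S phase, was at 63.1 and 69.3 CPM in cAMP, at 76.8 and 72.2 in 4OHT and at 78.4 and 97.8 in PD+LY, a log2 fold change of 0.41 ± 0.12 (adjusted p = 0.0262). All 4 treated libraries were above both cAMP libraries for E2f1, and the 2 PD+LY libraries were far apart. Cdc45, the helicase partner of the MCM ring, rose by 0.31 ± 0.10 (adjusted p = 0.0463), and its exons overlap those of Ufd1 over 5.96% of their length. Pcna was at 202 and 210.3 CPM in cAMP, at 188 and 184 in 4OHT and at 208 and 194 in PD+LY, a log2 fold change of -0.03 ± 0.09 (adjusted p = 0.807). Pcna in PD+LY overlapped its level in cAMP.

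The MCM helicase loads as a ring of 6 subunits, and its genes did not move together. Mcm5 was at 315 and 323 CPM in cAMP, at 295 and 278 in 4OHT and at 219.0 and 264 in PD+LY, a log2 fold change of -0.40 ± 0.10 in PD+LY against cAMP (adjusted p = 0.0124 by edgeR). The 3 groups did not overlap for Mcm5. Mcm2 was at 398 and 414 CPM in cAMP, at 436 and 415 in 4OHT and at 405 and 468 in PD+LY, and the PD+LY libraries overlapped those of both other groups (0.10 ± 0.09, adjusted p = 0.448). The other 4 lay between -0.17 for Mcm4 and 0.12 for Mcm7, and none passed. Gins2 fell (-0.42 ± 0.12, adjusted p = 0.0251), with the same overlap with Gse1 as above.

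The remaining steps of replication held no call in PD+LY against cAMP. The origin licensing factors Cdc6 and Cdt1 were at 0.18 ± 0.10 and -0.14 ± 0.13 on the log2 scale. The ribonucleotide reductase subunits Rrm1 and Rrm2, which supply deoxynucleotides, were at -0.15 ± 0.09 and -0.17 ± 0.08, and Tyms was at 0.23 ± 0.12. Mcm10, which helps to start the helicase, was at -0.12 and the GINS subunit Gins1 at 0.10. The primase subunit Prim1 was at 0.15, and Fen1, which trims the flaps of the lagging strand, at 0.14. Fen1 shares 78.8% of its exon length with genes on the other strand, and 8 further members, Cdc25c and Ccna2 first among them, share at most 12.7% with other genes.

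The counts of calls moved when libraries were left out. Mitosis calls numbered 3 without cAMP library 1, 6 without cAMP library 2, 7 without either 4OHT library, 9 without PD+LY library 1 and 14 without PD+LY library 2, while the mitosis median stayed between -0.32 and -0.24. Replication calls numbered 3, 1, 3, 4 and 6 in the same order, and the replication median was 0.20 without PD+LY library 1 and 0.0196 without PD+LY library 2. Of the 13 mitosis calls, those of Cenpe and Bub1 held in all 6 of these fits, and none of the 6 replication calls did. The next values cover only the 7 markers and the 4 members of each class with the lowest p in this comparison. Among them the call was lost without cAMP library 1 for Mki67 (-0.18), Top2a (-0.33), Ttk (-0.43), Kif23 (-0.37), Chaf1b (0.44) and E2f1 (0.35). Without cAMP library 2 it was lost for Kif23 (-0.38), E2f1 (0.49), Mcm5 (-0.38), Pola1 (0.31) and Gins2 (-0.33). Without either 4OHT library it was lost for E2f1 (0.42), Mki67 (-0.30) and Gins2 (-0.42). It was lost without PD+LY library 1 for Gins2 (-0.33) and without PD+LY library 2 for E2f1 (0.24) and Mki67 (-0.24). Calls of other members were also lost in some of these fits, among them Kif11, Tpx2, Cdc25c and Bub1b. Over the 6 fits Kif11 ran from -0.45 to -0.32, Tpx2 from -0.34 to -0.28, Cdc25c from -0.45 to -0.29 and Bub1b from -0.43 to -0.21.

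The distance between the classes can be read in each library on its own. The mean log2 CPM of the mitosis genes, taken against its mean in cAMP, was 0.006 and -0.006 in the cAMP libraries, -0.099 and -0.069 in 4OHT and -0.33 and -0.27 in PD+LY. That of the replication genes was -0.012 and 0.012 in cAMP, 0.014 and -0.030 in 4OHT and -0.012 and 0.12 in PD+LY. The level of the 22 mitosis genes was lower in both 4OHT libraries than in cAMP and lower again in both PD+LY libraries. The replication level overlapped between all 3 groups. For 39 further mitosis genes, described below, the step in 4OHT was not seen. They were at 0.042 and -0.042 in cAMP, -0.015 and -0.0090 in 4OHT and -0.12 and -0.15 in PD+LY. In sums, the 22 mitosis genes took 5357 and 5215 CPM in cAMP, 4869 and 4995 in 4OHT and 4245 and 4336 in PD+LY. The difference, mitosis minus replication, was 0.018 and -0.018 in cAMP, -0.11 and -0.040 in 4OHT and -0.32 and -0.39 in PD+LY, or -0.35 ± 0.053 (SD, n = 2) in PD+LY. Both PD+LY libraries lay below the other 4. With 2 libraries against 2 an exact permutation test cannot go below a 2-sided p of 0.333, so no test is given for these means. In bulk RNA, fewer cells in mitosis and less RNA of these genes per cell cannot be told apart.

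**Figure D4:**
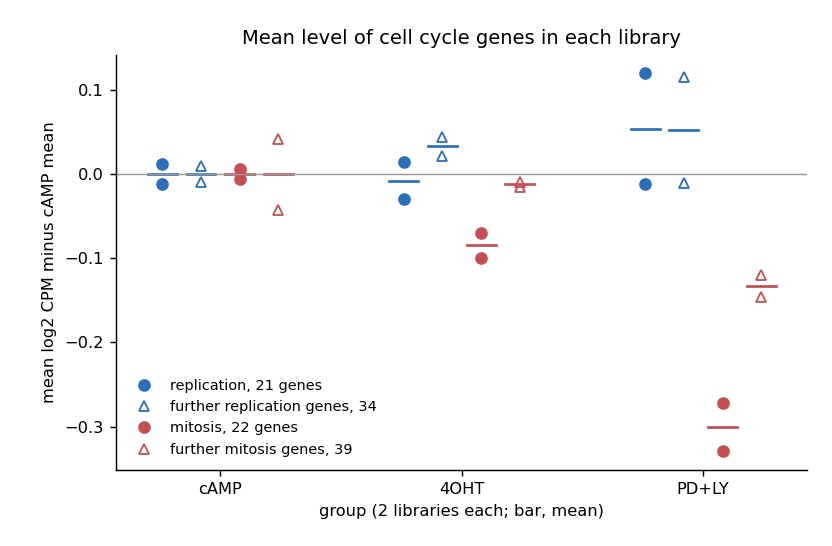
Mean log2 CPM against the cAMP mean in each library for the replication genes (filled blue circles, 21 genes), the mitosis genes (filled red circles, 22 genes) and the further genes of each kind (open triangles, 34 and 39 genes), with bars at the mean of 2 libraries. The red circles step down to -0.33 and -0.27 in PD+LY, while the blue circles stay between -0.030 and 0.12.

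Base composition, along which the PD+LY libraries differed, was compared with the values of each class. Transcript GC content ran from 41.0 to 58.8% among the 43 genes, with medians of 49.3% for replication and 47.6% for mitosis. The ratio of the 2 PD+LY libraries followed it in both classes, with a rho of -0.929 over the 22 mitosis genes and -0.777 over the 21 replication genes. The fold change of PD+LY against cAMP had a rho of 0.229 over the 43 genes, 0.347 over the mitosis genes and 0.0909 over the replication genes. That of 4OHT against cAMP had a rho of 0.513 over the 43 genes, 0.583 over the mitosis genes and 0.490 over the replication genes. The mitosis genes were then split at the GC median of the 43 genes (47.8%). In PD+LY against cAMP 7 of the 12 below it fell, and the median of all 12 was -0.34. Of the 10 at or above it 6 fell, and the median of all 10 was -0.29. In 4OHT against cAMP the genes below it and at or above it had medians of -0.17 and 0.012. With the GC offsets 16 mitosis genes fell in PD+LY against cAMP, and the median of all 22 was -0.33. In the same fit 4 replication genes rose and 2 fell, while the calls over all tested genes went from 3925 to 5044.

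**Figure D5:**
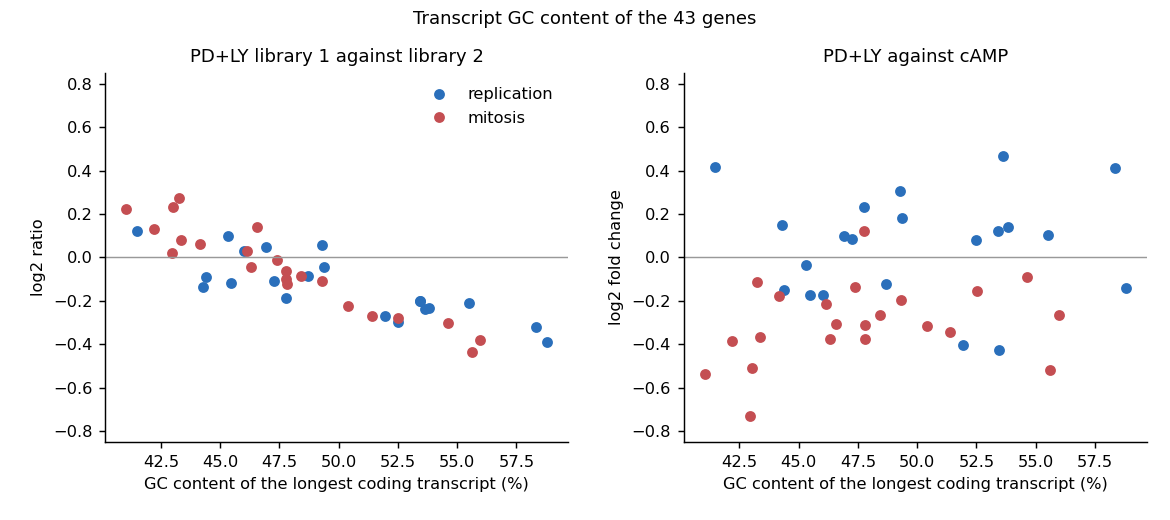
Transcript GC content (%) of the 43 genes against the log2 ratio of PD+LY library 1 to library 2 (left) and against the log2 fold change of PD+LY to cAMP (right), with replication genes in blue and mitosis genes in red. The left panel slopes down in both colours (rho of -0.861), while in the right panel red points lie below 0 across the whole range of GC content.

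Further genes of the same machinery, taken from lists of known members, gave smaller medians. Among 39 other mitosis genes, from the outer kinetochore to condensin and cytokinesis, 7 fell (17.9%, against 13.7% of all tested genes) and 3 rose in PD+LY against cAMP with a median of -0.16. Against 4OHT the calls were 6 lower (15.4%, against 12.1%) and 1 higher, again with a median of -0.16. In 4OHT against cAMP 1 of them rose. These shares were near those of all tested genes. Leaving out 1 library gave 1 to 9 lower calls against cAMP and 0 to 11 against 4OHT, and Ncapd2 and Pbk kept their calls against cAMP in all 6 fits. Ncapd2, a condensin subunit, fell by 0.46 on the log2 scale (adjusted p = 0.00585 by edgeR) against cAMP, and Dlgap5 and Cdc25b fell by 0.42 and 0.41 against 4OHT (adjusted p = 0.00505 and 0.0194). Pbk, a mitotic kinase, went the other way, at 54.97 and 49.4 CPM in cAMP, at 65.0 and 60.8 in 4OHT and at 83.9 and 76.6 in PD+LY (0.62, adjusted p = 0.00162). Pttg1, the securin, was 0.37 higher in 4OHT than in cAMP (adjusted p = 0.0380 by edgeR), and Mad2l1 was at -0.27 (adjusted p = 0.135). With each library left out in turn Pttg1 ran from 0.29 to 0.45, and its call did not hold in every fit.

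Among 34 other replication genes 3 rose (8.82%, against 12.1% of all tested genes) and 0 fell in PD+LY against cAMP, with 5 at an unadjusted p under 0.05 and a median of 0.02. Against 4OHT 2 rose (5.88%, against 10.7%) and 1 fell with a median of 0.03, which was -0.041 without PD+LY library 2 and -0.022 with the GC offsets, and in 4OHT against cAMP 1 rose with a median of 0.04. Rpa2, a subunit of the protein that coats single-stranded DNA, was at 106 and 108 CPM in cAMP, at 145 and 131 in 4OHT and at 148 and 169.9 in PD+LY. It was higher in all 4 treated libraries than in cAMP, by 0.37 in 4OHT (adjusted p = 0.0465) and by 0.57 in PD+LY (adjusted p = 0.00174 by edgeR). With each library left out in turn the rise in 4OHT ran from 0.29 to 0.44, and its call did not hold in every fit. Dut, which keeps uracil out of the nucleotide pool, rose by 0.42 in PD+LY against cAMP (adjusted p = 0.0174) and by 0.39 against 4OHT (adjusted p = 0.0302), and Rfc5, a clamp loader subunit, by 0.30 against 4OHT (adjusted p = 0.0379). Uhrf1 was at 0.30 in 4OHT against cAMP (adjusted p = 0.0654).

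The 18 further genes of the E2F, pocket protein and MuvB families were measured in the same fits. E2f3, an activator E2F, was at 44.1 and 41.8 CPM in cAMP, at 28.02 and 26.4 in 4OHT and at 46.7 and 47.5 in PD+LY. It fell in 4OHT by 0.66 on the log2 scale (adjusted p = 0.00625 by edgeR). In PD+LY it was 0.79 above 4OHT (adjusted p = 0.000701 by edgeR). Against cAMP, E2f3 in PD+LY was at 0.13 (adjusted p = 0.422 by edgeR) and did not pass, though both PD+LY libraries lay above both cAMP libraries. Rb1, the retinoblastoma protein that restrains E2F, was at 39.4 and 28.9 CPM in cAMP, at 33.6 and 35.9 in 4OHT and at 73.2 and 49.0 in PD+LY, a rise by 0.84 over cAMP (adjusted p = 0.00663) and by 0.81 over 4OHT (adjusted p = 0.00945). Both PD+LY libraries were above the other 4 for Rb1, though far from each other, and the rise over cAMP was 1.11 without PD+LY library 2 and 0.53 without PD+LY library 1. Its relative Rbl1 rose by 0.47 over cAMP (adjusted p = 0.0164), and Lin37, a MuvB subunit, by 0.65 in 4OHT over cAMP (adjusted p = 0.0257). Of the 18 genes, 2 were called in 4OHT against cAMP, 1 in each direction. Neither call held with every library left out in turn, where E2f3 ran from -0.70 to -0.61 and Lin37 from 0.55 to 0.77. PD+LY had 4 higher and 2 lower calls against 4OHT (22.2% and 11.1%, against 10.7% and 12.1% of all tested genes). It had 3 of each against cAMP (16.7%, against 12.1% higher and 13.7% lower). None of the 6 calls against cAMP held with every library left out in turn, and of those against 4OHT that of E2f3 did.

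The cell types in the organoids moved with the same groups. Thyroid markers (9 of 9 above 3 counts in every library) summed to 1642 and 1094 CPM in cAMP. The sums were 560 and 749 in 4OHT and 1969 and 977 in PD+LY. Tg made up most of each sum, at 1566 and 1022 CPM in cAMP, 514 and 693 in 4OHT and 1870 and 907 in PD+LY. Markers of pluripotent cells, which divide fast, were all present (10 of 10). They summed to 3798 to 3852 CPM in cAMP, 4050 to 4225 in 4OHT and 4190 to 4533 in PD+LY. The single genes went both ways. In PD+LY against cAMP 6 of the 10 were called higher and 3 lower, among them Nanog at 0.89 and Lin28a at -2.35. Mesenchymal markers (8 of 8) summed to 1357 and 1521 CPM in cAMP, to 2429 and 2581 in 4OHT and to 4835 and 4161 in PD+LY, an order of groups opposite to that of the mitosis genes. The collagens Col1a1, Col1a2 and Col3a1 made up most of that sum, and in PD+LY against cAMP 4 of the 8 genes were called higher and 3 lower, among them Vim at -0.59 and Pdgfrb at -1.06. Epithelial markers (4 of 4) summed to 649 to 913 CPM, endothelial markers (5 of 6) to 155 to 181, and neural progenitor markers (3 of 4) to 41.4 to 68.0. Among the epithelial markers 3 of 4 were called lower in PD+LY against cAMP, and Epcam had the order of groups of the mitosis genes, at 203 and 205 CPM in cAMP, 123 and 138 in 4OHT and 85.6 and 82.1 in PD+LY. Pecam1 made up most of the endothelial sum, while Kdr and Cdh5 fell in 4OHT against cAMP (-2.31 and -1.47). Macrophage markers (2 of 4) summed to 64.6 and 67.3 CPM in cAMP, 57.1 and 62.7 in 4OHT and 31.7 and 33.5 in PD+LY, with Ptprc and Adgre1 at 0 in every library. Cd68 alone made up nearly all of that sum, at 63.6 and 66.2 CPM in cAMP and 30.8 and 32.6 in PD+LY. Csf1r was at 0.87 to 1.43 CPM and was not called in any comparison. The part of these cell types in the levels of the division genes was not tested.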

How the data were processed

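Bulk RNA-seq of 6 libraries was analysed, 2 per group. According to the authors, reads went through Trimmomatic, HISAT2 aligned them to the mm10 build, and HTSeq assigned them to genes in its unstranded mode, although the library kit keeps strand. The deposited values are raw, unnormalized counts per gene symbol. Counts were fitted with edgeR 4.0.16 (R 4.3.3) in 1 quasi-likelihood model over all 3 groups, after filterByExpr (minimum count 10, minimum total 15) and with TMM factors of 0.990 to 1.01. P-values were adjusted by Benjamini-Hochberg over 15256 genes, and an adjusted p under 0.05 was called. The common biological coefficient of variation was 0.105. Library totals ran from 14898409 to 20637959. The procedure was tested on simulated data.

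The members and lists were chosen with earlier results of these data known. Named genes were 7 markers (Pcna, Mcm2, E2f1, Mki67, Top2a, Cdk1, Ccnb1), the 4 members of each class with the lowest p in each comparison, and the 2 lowest of each further list. Other members were named after their values were seen, to account for each role. Gene positions, exon lengths, overlaps and GC content came from GENCODE M21 (GRCm38), and promoters from RefSeq. Whether replicate numbers pair the samples is not stated. Same-numbered libraries deviated from their group means with correlations across genes of 0.0718, 0.207 and 0.0586, which cannot settle it. With the replicate number as a block, calls over all tested genes went from 1280 to 2373 in 4OHT against cAMP. They went from 3469 to 4742 in PD+LY against 4OHT and from 3925 to 5057 in PD+LY against cAMP. Duplicates are stated, but not that the 2 libraries of a group were separate cultures, so p-values measure the spread between these libraries, which may be technical. Alternatives were RLE size factors, DESeq2 1.42.0, other filters, fits of 2 groups, the replicate block, a 2-fold rule, leaving out each library, and GC offsets.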

Additional observations from a re-analysis of the deposited data

How the results depend on the processing

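The medians of both classes and their difference kept their direction in every alternative run. Limits lay in the number of calls. At a 2-fold change 0 genes of either class were called in any comparison. In 4OHT against cAMP, 1 replication gene and 2 mitosis genes were called without the low-count filter, with only the 2 groups compared and with the replicate block; leaving out 1 library gave 0 to 1 and 0 to 2. In PD+LY against 4OHT the GC offsets gave 6 replication and 11 mitosis calls and the replicate block 12 mitosis calls; leaving out 1 library gave 0 to 6 and 0 to 10. In PD+LY against cAMP only the 2 groups compared gave 3 and 8; leaving out 1 library gave 1 to 6 and 3 to 14. The block changed no other count of the 2 classes by over 1.5 times, and whether the number pairs the samples is not stated. In PD+LY against 4OHT the block gave more calls in the further lists. These were 4 higher and 4 lower among the other replication genes and 1 higher and 12 lower among the other mitosis genes.

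Leaving out 1 library, the medians in PD+LY against 4OHT ran from 0.014 to 0.14 for replication and from -0.26 to -0.15 for mitosis, with a difference of 0.27 to 0.38, and in PD+LY against cAMP from 0.0196 to 0.20 and from -0.32 to -0.24, with a difference of 0.34 to 0.44. In 4OHT against cAMP they ran from -0.023 to -0.012 and from -0.092 to -0.065, with a difference of 0.050 to 0.074. With GC offsets the difference in 4OHT against cAMP was 0.035, at a mitosis median of -0.055. Signs changed for uncalled values near 0 only. With GC offsets Mcm2 was at -0.019 and Ccnb1 at 0.016 in 4OHT against cAMP, and Cdk1 at -0.0027 in PD+LY against 4OHT. Leaving out 1 library, Ccnb1 ran from -0.18 to 0.058 in 4OHT against cAMP, Mcm2 from -0.071 to 0.14 and Cdk1 from -0.012 to 0.085 in PD+LY against 4OHT, and Pcna from -0.085 to 0.016 and Mcm2 from -0.0037 to 0.21 in PD+LY against cAMP. The cause of these shifts was not tested. Of the remaining values of named genes, 495 stayed on their side of the threshold, 38 lost the call and 16 gained it.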
